A study of Mus musculus with 6 samples.

Results

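The genes described here encode cytoplasmic dynein, its partner dynactin and their regulators LIS1 and NDEL1. They are the rows of the deposited expression table whose symbol is Dync1h1, Dync1i2, Dync1li1, Dync1li2, Dynll1, Dynll2, Dctn1, Dctn2, Pafah1b1 or Ndel1, 10 of 16022 genes, and all 10 were found and passed the filter on low counts. RNA was sequenced from LSK cells of mouse bone marrow, the lineage-negative cells with high Sca-1 and with c-kit that hold hematopoietic stem cells and early progenitors. There were 3 libraries from wild-type (WT) mice and 3 from mice deficient in HDAC6. The labels give no strain, age, knockout allele or pooling for either group, and do not say whether each library is another animal, so every p-value here reflects only how these libraries vary, which may be technical. In bulk RNA of this kind, fewer cells of a type and less RNA per cell cannot be told apart.

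Cytoplasmic dynein is the motor that walks toward the minus ends of microtubules. Its heavy chain burns ATP and steps, the intermediate and light intermediate chains hold cargo and adaptors, and small light chains close the tail. Dynactin, a large complex built on a short actin-like filament, is needed for long runs, and LIS1 with NDEL1 helps dynein to assemble with it. HDAC6 removes acetyl groups from tubulin and binds both dynein and ubiquitin chains, which links misfolded protein to this motor on its way to the aggresome. In dividing cells the same motor positions the spindle.

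Across the 6 libraries 0 of the 10 genes passed the test for a difference between knockout and WT. The motor heavy chain gene Dync1h1 and the intermediate chain gene Dync1i2 were at 83.7% and 87.0% of their WT means, and every knockout library lay below every WT library for both. The other 8 genes overlapped between the groups, and the 10 log2 fold changes ran from -0.26 to 0.30. Their median was 0.0076, with 5 genes above WT and 5 below. With upper-quartile scaling the split was 3 above and 7 below, and all genes tested shifted the same way, from a median of -0.0034 to -0.055. The median over all 12875 genes tested was -0.0034, with 6370 above WT and 6505 below. Without WT replicate 1, 3 of the genes lay above WT and 7 below, with a median of -0.11.

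The test was edgeR's quasi-likelihood test over all genes with Benjamini-Hochberg adjustment, and its threshold was an adjusted p of 0.05. Levels are CPM, library-size-scaled counts with TMM factors, as mean ± SD of 3 libraries unless single libraries are given, which for the knockout also stand in the order of replicates 1, 2 and 3. Over all genes 1 was called, the targeted gene itself, which is 0.00777% of those tested. DESeq2 called 1.35% of the genes it tested, and 0 of the 10. At an unadjusted edgeR p under 0.05 there was 1 of the 10 on the lower side, where 6.15% of all genes lay, and 0 on the higher side, where 7.24% lay. The 2 genes with groups apart, both with the knockout lower, stand beside 9.70% of all genes apart in that direction, 8.86% in the other and 18.6% in either. A share of 2 in 10 is near that background.

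Hdac6 measured 68.0, 58.2 and 54.3 CPM in WT replicates 1, 2 and 3, and 9.62, 7.69 and 11.3 CPM in knockout libraries, a log2 fold change of -2.66 (SE 0.19, edgeR adjusted p = 0.000594). Total counts ran from 25993971 to 28743672 per library. The marker genes of the sort gate, Kit for c-kit and Ly6a for Sca-1, were present in every library. Kit was at 1272 ± 127 CPM for WT and 875 ± 185 CPM for the knockout and Ly6a at 65.1 ± 4.34 and 107 ± 21.4 CPM (SD, n = 3 each), with groups apart for both and an edgeR adjusted p of 0.298 for each. DESeq2 called both, with adjusted p of 0.0471 and 0.00718. Of 10 LSK markers, Kit and Ly6a among them, 3 lay above WT and 7 below. They summed to 4399 to 4968 CPM in WT and to 3432 to 4520 CPM in knockout libraries. Natural killer and innate lymphoid markers had 6 above and 1 below, and mast cell and basophil markers 5 above and 0 below. The former summed to 271 to 326 CPM in WT and to 275 to 374 CPM in knockout libraries. The latter summed to 115 to 135 CPM in WT and to 127 to 208 CPM in knockout libraries. Both sums overlapped between the groups and were highest in knockout replicate 2. Of 9 mature neutrophil markers 8 were tested and 7 lay below WT. Their summed level was 39.5 to 108 CPM in WT and 12.4 to 29.2 CPM in knockout libraries, and 0 of the 9 were at 0 in all libraries. Monocyte and macrophage markers summed to 791 CPM in knockout replicate 2 and to 166 to 288 CPM in the other libraries. The part of such cells, or of the shift in gate markers, in the values below was not tested.

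Dync1h1 encodes the heavy chain that carries the motor domain. It measured 149, 158 and 173 CPM in WT replicates 1, 2 and 3, and 131, 134 and 138 CPM in knockout libraries. All 3 knockout libraries were low and close together, and the nearest WT library was replicate 1. The means were 160 ± 12.3 CPM in WT and 134 ± 3.45 CPM in knockout libraries (SD, n = 3 each). The log2 fold change was -0.26 (SE 0.10, 95% interval -0.49 to -0.03), with an edgeR unadjusted p of 0.0329 and an adjusted p of 0.345. It ranked 1225th by p among the genes tested. By exact permutation, two-sided, p was 0.1, and 3 libraries against 3 can reach no smaller value. The difference kept its sign under all 15 alternatives tried, from -0.31 to -0.19, and passed under 0 of them.

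Dync1i2 encodes the intermediate chain that joins the heavy chain to dynactin. Its values were 167, 150 and 155 CPM in WT replicates 1, 2 and 3, and 136, 135 and 139 CPM in knockout libraries. The knockout libraries spanned a range of a few CPM below the lowest WT library, replicate 2. Means were 157 ± 8.70 and 137 ± 1.82 CPM (SD, n = 3 each), with a log2 fold change of -0.20 (SE 0.10, 95% interval -0.42 to 0.02) and an edgeR adjusted p of 0.401. Per length its paralog Dync1i1 was at 0 to 0.27 FPKM, where Dync1i2 was at 69.7 ± 3.79 FPKM in WT and 57.7 ± 2.61 FPKM in the knockout.

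**Figure D1:**
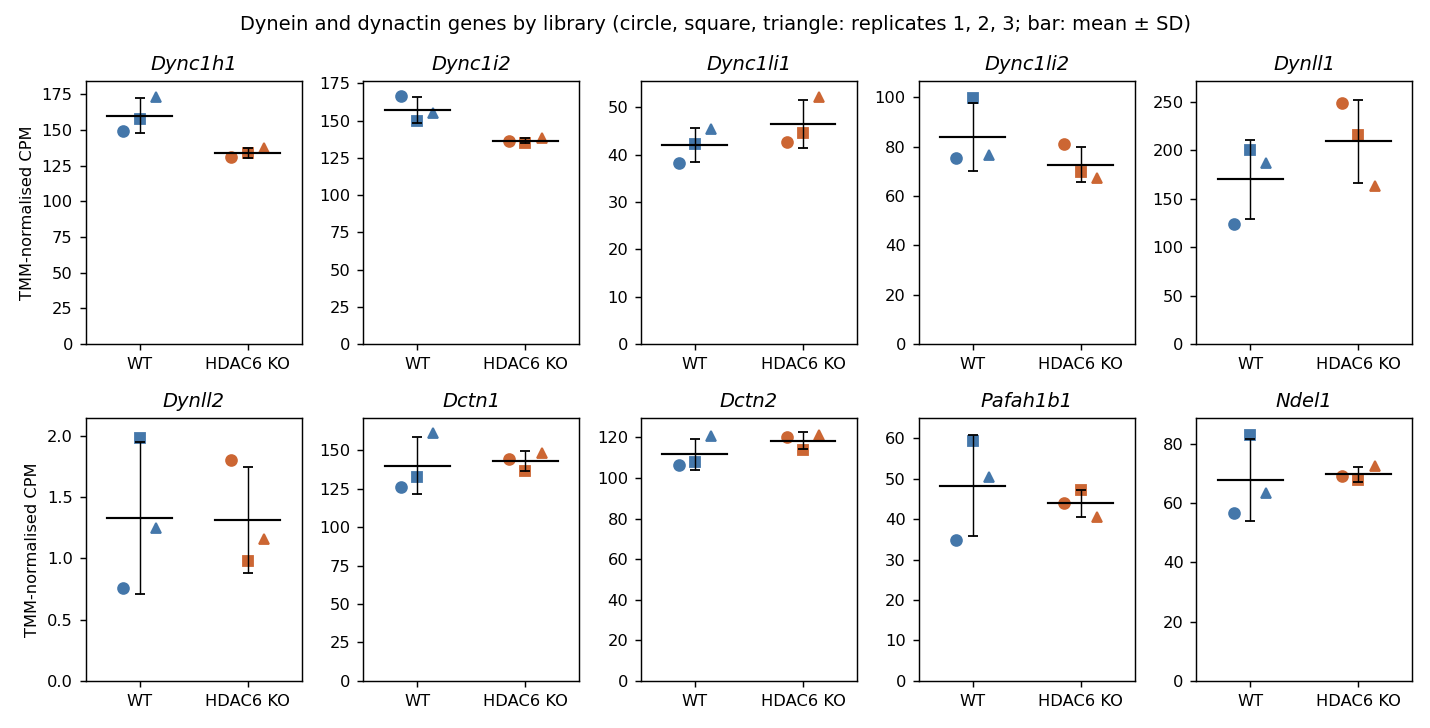
TMM-normalised CPM of the 10 genes in each library (WT blue, HDAC6 knockout orange), with means and SDs of 3 libraries as bars and axes from 0. Dync1h1 and Dync1i2 are the panels in which the knockout points all lie below the WT points, and WT replicate 1, the blue circle, is the lowest of the 6 points in 7 panels.

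Start-site sequences are shown for these 2 genes because their groups did not overlap, and for Dynll1 because it had the highest level per length and the difference of largest size on the other side. RefSeq (GRCm38.p6) held promoter windows for 8 of the 10 genes, each from 250 bases before the start to 50 after, with 2 windows for Dctn1 and 2 for Dync1i2, which overlap each other in Dync1i2. Dync1li2 and Dynll2 were not among them. Capitals mark matches, on either strand, to 4 short motifs. These were the GC box GGGCGG, the CCAAT box, the E-box CACGTG and the ETS core CGGAAG.
Dync1h1, chr12:110601145-110601444, plus strand: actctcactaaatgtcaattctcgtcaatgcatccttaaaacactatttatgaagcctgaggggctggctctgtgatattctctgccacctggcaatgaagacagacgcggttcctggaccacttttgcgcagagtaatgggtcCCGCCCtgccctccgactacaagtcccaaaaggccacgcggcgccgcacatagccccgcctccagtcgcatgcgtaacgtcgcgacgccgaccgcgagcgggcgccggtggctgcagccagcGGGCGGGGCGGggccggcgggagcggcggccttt
Dync1i2, first start, chr2:71211456-71211755, plus strand: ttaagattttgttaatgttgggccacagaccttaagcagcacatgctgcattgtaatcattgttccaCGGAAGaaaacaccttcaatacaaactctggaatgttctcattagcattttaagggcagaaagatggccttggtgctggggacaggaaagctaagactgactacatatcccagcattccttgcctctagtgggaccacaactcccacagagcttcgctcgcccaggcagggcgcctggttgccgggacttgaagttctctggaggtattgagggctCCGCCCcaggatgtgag
Dync1i2, second start, chr2:71211696-71211995, plus strand: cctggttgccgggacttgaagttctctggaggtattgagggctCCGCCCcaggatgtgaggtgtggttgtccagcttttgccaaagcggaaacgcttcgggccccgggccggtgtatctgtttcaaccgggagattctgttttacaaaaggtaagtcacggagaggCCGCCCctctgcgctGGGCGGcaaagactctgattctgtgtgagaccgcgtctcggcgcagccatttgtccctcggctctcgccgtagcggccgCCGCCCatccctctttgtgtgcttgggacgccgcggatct
Dynll1, chr5:115300941-115301240, minus strand: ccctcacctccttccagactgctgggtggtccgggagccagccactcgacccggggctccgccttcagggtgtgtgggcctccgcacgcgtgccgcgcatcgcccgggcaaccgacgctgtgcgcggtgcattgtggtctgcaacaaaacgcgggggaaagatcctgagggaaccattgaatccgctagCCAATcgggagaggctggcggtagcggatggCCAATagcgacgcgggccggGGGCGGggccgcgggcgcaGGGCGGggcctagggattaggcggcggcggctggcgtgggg

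The Dync1h1 window held 3 GC boxes, among which there was 1 overlapping pair, and no other match. The first Dync1i2 window held 1 GC box with 1 ETS core. The second held 4 GC boxes, which include that of the first, since it lies in the stretch that both windows share. Dynll1 had 2 GC boxes and 2 CCAAT boxes, and the highest GC content of the 3 genes, 71% against 62.3% for Dync1h1 and 50% and 61% for Dync1i2. Over the 8 genes with a window, 5 had a GC box, a match that 35.7% of all 32851 windows hold. These counts are per gene, over any of its windows, while the shares are per window, so the 2 are not alike. CCAAT was found in 2 genes (37.4% of all windows), CACGTG in 1, Ndel1 (7.15%), and CGGAAG in 3 (16.9%), namely Dync1i2, Pafah1b1 and Ndel1. The GC box was the one motif of the 4 found in both genes with groups apart. It was also found in Dync1li1, Dynll1 and Ndel1, whose groups overlapped, so it did not set those genes apart. These are matches of letters in this window and were not tested as binding sites.

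The light intermediate chains are the part of dynein that cargo adaptors grip. Dync1li1 stood at 38.2, 42.3 and 45.4 CPM in WT replicates 1, 2 and 3, and at 42.6, 44.6 and 52.2 CPM in knockout libraries. Only knockout replicate 3 exceeded all WT libraries, and the log2 fold change was 0.15 (95% interval -0.17 to 0.46, edgeR adjusted p = 0.663). It was 0.055 without knockout replicate 3 and 0.084 without WT replicate 1. Its paralog Dync1li2 measured 75.3, 99.9 and 76.8 CPM in WT and 81.0, 70.0 and 67.4 CPM in knockout libraries. WT replicate 2 stood above the other 5 libraries, and the log2 fold change was -0.21 (95% interval -0.53 to 0.11, edgeR adjusted p = 0.543). Without WT replicate 2 it was -0.062.

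Because paralogs fill the same place in the complex, their ratio within a library was compared, which is free of library scaling. Per length, on the scale of the deposited FPKM, Dync1li1 exceeded Dync1li2 in every library, by 1.24, 1.04 and 1.46 times in WT replicates 1, 2 and 3 and by 1.29, 1.55 and 1.88 times in the knockout. The groups overlapped. The mean log2 ratio was 0.30 ± 0.24 in WT and 0.64 ± 0.27 in the knockout (SD, n = 3 each), a difference of 0.33, with an exact two-sided permutation p of 0.2, or 0.6 when adjusted over the 3 ratios compared. The difference was 0.20 without knockout replicate 3 and 0.21 without WT replicate 2. The coding sequences of this pair were 69.9% identical over 1474 aligned bases.

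**Figure D2:**
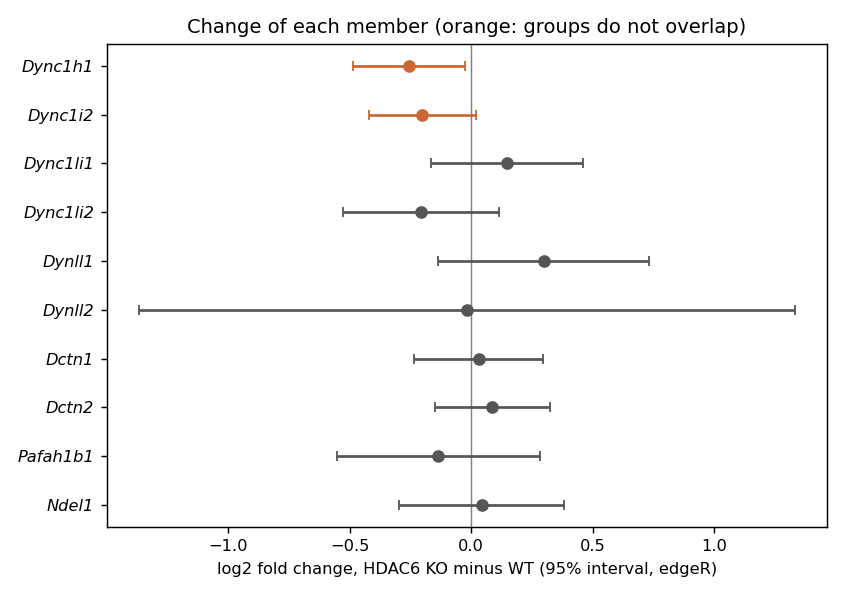
Log2 fold change of each gene, knockout minus WT, with its 95% interval from edgeR. The interval lies below 0 for Dync1h1 (-0.49 to -0.03) and spans 0 for the other 9, and it is widest for Dynll2 (-1.36 to 1.33).

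The light chains Dynll1 and Dynll2 are small dimers that dock on the intermediate chain and also serve many proteins outside the motor. Their proteins are close relatives, so the coding sequences are set out to show how far reads can tell them apart. Both come from GENCODE M21 transcripts (GRCm38), run from start to stop codon, and carry capitals where they differ.
Dynll1: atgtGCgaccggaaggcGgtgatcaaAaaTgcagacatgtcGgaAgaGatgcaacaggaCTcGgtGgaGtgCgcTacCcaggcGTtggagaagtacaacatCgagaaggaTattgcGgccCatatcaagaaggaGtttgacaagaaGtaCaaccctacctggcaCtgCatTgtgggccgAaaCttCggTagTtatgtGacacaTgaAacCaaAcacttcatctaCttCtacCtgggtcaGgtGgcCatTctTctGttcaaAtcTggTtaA
Dynll2: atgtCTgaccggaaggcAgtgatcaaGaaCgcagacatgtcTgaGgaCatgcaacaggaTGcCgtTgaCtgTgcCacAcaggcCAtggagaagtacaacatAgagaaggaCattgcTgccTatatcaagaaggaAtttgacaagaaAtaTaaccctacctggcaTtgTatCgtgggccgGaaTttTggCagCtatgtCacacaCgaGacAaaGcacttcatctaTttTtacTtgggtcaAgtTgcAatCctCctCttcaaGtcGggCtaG

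Of 270 bases 219 were identical (81.1%). The 51 differing positions were spread along the whole length, 46 of them at the third position of a codon, 4 at the first and 1 at the second, and the longest identical run was 16 bases. Dynll2 had whole counts in all 6 libraries. Dynll1 had counts that were not whole in 5 of the 6, and the labels and notes do not say how reads shared between genes were divided. The level of Dynll1 is uncertain to that extent.

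Dynll1 was at 124, 200 and 187 CPM in WT replicates 1, 2 and 3, and at 248, 215 and 163 CPM in knockout libraries. WT replicate 1 was the low library and knockout replicate 1 the high one, and the groups overlapped. Means were 170 ± 40.8 and 209 ± 42.9 CPM (SD, n = 3 each), or 0.30 as a log2 fold change (95% interval -0.14 to 0.73, edgeR adjusted p = 0.518). It was 0.11 without WT replicate 1, 0.16 without knockout replicate 1 and 0.45 without knockout replicate 3. Dynll2 rested on 21 to 56 counts per library. Its values were 0.75, 1.98 and 1.25 CPM in WT and 1.80, 0.98 and 1.16 CPM in knockout libraries, with a log2 fold change of -0.017 and a 95% interval of -1.36 to 1.33. That interval was the widest of the 10.

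Per length, Dynll1 exceeded Dynll2 by 207, 126 and 187 times in WT replicates 1, 2 and 3 and by 173, 274 and 176 times in the knockout. The log2 ratio differed between the groups by 0.26, with overlapping libraries (exact two-sided permutation p = 0.6, 0.9 when adjusted over the 3 ratios). It was 0.040 without knockout replicate 2 and 0.044 without WT replicate 2. In these libraries this light chain pair was represented at the RNA level almost wholly by Dynll1 in both genotypes.

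Dctn1 encodes the long arm of dynactin that binds microtubules and the dynein intermediate chain. It measured 127, 132 and 161 CPM in WT replicates 1, 2 and 3, and 145, 136 and 149 CPM in knockout libraries, so that the WT libraries enclosed all knockout libraries. The log2 fold change was 0.032 (95% interval -0.23 to 0.30, edgeR adjusted p = 0.92), and it was -0.019 with upper-quartile scaling. Dctn2 encodes dynamitin, a subunit of the shoulder that ties the arm to the filament and that breaks dynactin apart when overproduced. It measured 106, 108 and 121 CPM in WT and 120, 114 and 121 CPM in knockout libraries, a log2 fold change of 0.09 (95% interval -0.15 to 0.32, edgeR adjusted p = 0.737). WT replicate 3 lay within the knockout range, while WT replicates 1 and 2 lay below them. Without WT replicate 3 Dctn2 had 0.15, without WT replicate 1 it had 0.055, and with upper-quartile scaling it had 0.036. The outer bound of these intervals is 0.32 on the log2 scale.

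Pafah1b1 encodes LIS1, the dynein regulator whose loss of a copy causes lissencephaly. It stood at 34.9, 59.4 and 50.5 CPM in WT replicates 1, 2 and 3 and at 44.0, 47.2 and 40.6 CPM in knockout libraries. The knockout libraries all lay between WT replicate 1 and WT replicate 3. The log2 fold change was -0.14 (95% interval -0.55 to 0.28, edgeR adjusted p = 0.77), and it was 0.043 without WT replicate 2. Ndel1 encodes the protein that recruits LIS1 to dynein, and measured 56.5, 83.1 and 63.6 CPM in WT and 69.0, 67.7 and 72.7 CPM in knockout libraries. WT replicate 2 was again the highest library and WT replicate 1 the lowest (log2 fold change 0.043, 95% interval -0.29 to 0.38, edgeR adjusted p = 0.915).

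Nde1, the paralog of Ndel1 with a role in mitosis, was at 161 ± 6.98 CPM in WT and 166 ± 7.97 CPM in knockout libraries (SD, n = 3 each). Per length Ndel1 was at 0.32, 0.51 and 0.38 of Nde1 in WT replicates 1, 2 and 3 and at 0.38, 0.39 and 0.44 of it in the knockout. The log2 ratio differed by 0.030 between the groups (exact two-sided permutation p = 0.9, also 0.9 when adjusted over the 3 ratios). In each of the 6 libraries Nde1 was the more abundant of this pair.

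WT libraries varied more than knockout libraries for 9 of the 10 genes on the log2 CPM scale, a pattern seen in 52.9% of all genes tested. WT replicate 1 was the lowest WT library for 9 of the 10, against 34.7% of all genes, and the lowest of all 6 libraries for 7, against 20.0%. The exception in the first respect was Dync1li1, whose SD was larger in the knockout. The exception in the second was Dync1i2, which was highest in WT replicate 1. These counts describe 10 genes read in the same libraries and were not tested. With WT replicate 1 left out, Pafah1b1 joined Dync1h1 and Dync1i2 among the genes with the knockout lower throughout, 3 of 10 where 15.9% of all genes then lay apart on that side and 13.5% on the other. Without WT replicate 3 the groups did not overlap in 5 genes, with Dync1li1, Dctn1 and Dctn2 on the higher side. Of all genes 16.8% then lay apart on the higher side and 18% on the lower. Dync1h1 and Dync1i2, apart with all 6 libraries, cannot come to overlap when a library is left out.

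Levels can be compared between genes only per length, and the deposited FPKM serve for that. Over the 6 libraries Dynll1 had the highest mean, 104.5 FPKM, followed by Dctn2 (68.0), Dync1i2 (63.7), Dctn1 (36.0) and Ndel1 (31.7). Below them came Dync1li1 (24.2), Dync1li2 (17.6), Dync1h1 (10.4), Pafah1b1 (8.70) and Dynll2 (0.585 FPKM). Dctn2 and Dync1i2 overlapped in WT, and their order held in 4 of 6 libraries. Dctn1 with Ndel1 and Dync1h1 with Pafah1b1 also overlapped, each in its order in 5 of 6. Dynll1 with Dctn2 and Dync1li1 with Dync1li2 overlapped in WT but kept their order in 6 of 6. Dync1h1 and Dync1i2 are subunits of the same motor. Dync1h1 stood at 11.6 ± 0.81 FPKM in WT and 9.21 ± 0.55 FPKM in the knockout, and Dync1i2 at 69.7 ± 3.79 and 57.7 ± 2.61 FPKM (SD, n = 3 each). The labels and notes do not state the gene lengths behind these FPKM, and a longer gene model lowers the value.

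**Figure D3:**
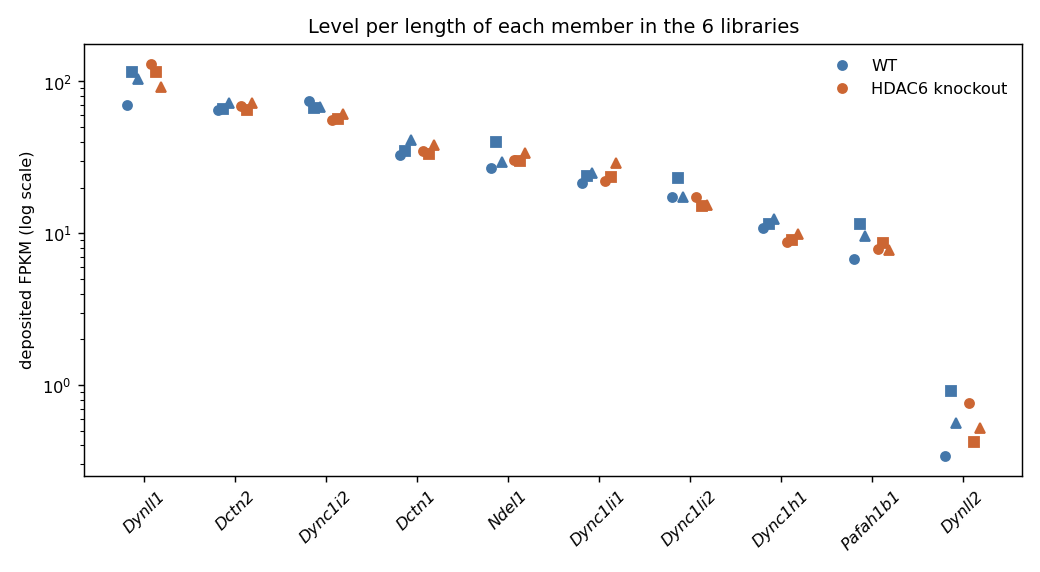
Deposited FPKM of each gene on a logarithmic axis, ordered by the mean of the 6 libraries, with WT in blue and knockout in orange (circle, square and triangle for replicates 1, 2 and 3). Dynll1 leads at a mean of 104.5 FPKM and Dynll2 is last at 0.585 FPKM.

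The genes whose log2 CPM over the 6 libraries ran most like that of Dync1h1, among 10105 genes with a mean of at least 5 CPM, were Lamb2 (Pearson r = 0.996), Soga1 (0.990), Rab43 (0.988), Zfp704 (0.988) and C2cd5 (0.985). These coefficients describe 6 libraries that include both groups, and the 5 were picked as the highest. Lamb2, a laminin chain gene, measured 7.50, 9.23 and 11.7 CPM in WT replicates 1, 2 and 3 and 5.36, 5.44 and 5.80 CPM in knockout libraries. Its edgeR adjusted p was 0.31, so it did not pass either.

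Other subunits of cytoplasmic dynein were given by a list of 8 genes, of which 7 were tested and 0 passed, with 2 above WT, 5 below and a median log2 fold change of -0.034. Without WT replicate 1 the split was 5 above and 2 below. Dynlrb1, a light chain of the roadblock family, was abundant at 112 ± 13.5 CPM in WT and 121 ± 8.02 CPM in knockout libraries, and Dynlrb2 lay at 0 to 0.32 CPM. Dynlt3 measured 83.9 ± 13.2 and 81.0 ± 4.32 CPM (SD, n = 3 each). The Tctex light chain gene Dynlt1a measured 38.9, 40.7 and 38.9 CPM in WT and 24.7, 27.0 and 33.0 CPM in knockout libraries, with groups apart and a log2 fold change of -0.48 (edgeR adjusted p = 0.307). Its near-identical copies Dynlt1b, Dynlt1c and Dynlt1f had log2 fold changes of -0.034, -0.0078 and 0.040. All 4 copies had counts that were not whole in all 6 libraries, so the share of each is uncertain.

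The 10 other dynactin subunits leaned to the higher side, with 9 of 10 above WT and 0 past the test, and their log2 fold changes had a median of 0.12. With upper-quartile scaling 8 of 10 lay above WT with a median of 0.070, and without WT replicate 3 it was 8 of 10 and 0.064. On log2(FPKM + 1) it was 8 of 10 and 0.040, where the median of all genes tested was -0.052. Actr1a encodes ARP1, the actin-like protein that forms the filament. It measured 186, 205 and 173 CPM in WT replicates 1, 2 and 3, and 239, 211 and 221 CPM in knockout libraries, with the knockout libraries all above WT. Its log2 fold change was 0.25 (SE 0.11, edgeR adjusted p = 0.358), and that of its paralog Actr1b was 0.13. The capping protein genes Capza1, Capza2 and Capzb, which close the end of the filament, had log2 fold changes of 0.13, 0.12 and 0.10. The pointed-end subunit genes Dctn4, Dctn5, Dctn6 and Actr10 had -0.16, 0.0067, 0.16 and 0.13, and Dctn3, a subunit of the shoulder, had 0.081. Dctn4 was the 1 subunit below WT.

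Regulators of the LIS1 and NDE family were measured as 9 genes, with 6 above WT, 3 below, a median of 0.065 and 0 past the test. On log2(FPKM + 1) 4 lay above WT and 5 below, and leaving out knockout replicate 1 gave a median of 0.010, WT replicate 2 one of 0.027. Nudc, a chaperone partner of LIS1, measured 407, 361 and 361 CPM in WT replicates 1, 2 and 3 and 516, 477 and 394 CPM in knockout libraries (log2 fold change 0.30, edgeR adjusted p = 0.34). Nudcd2, of the same family, had 0.35 (adjusted p = 0.345). In both genes knockout replicate 3 lay within the WT range. Pafah1b3, which encodes a catalytic subunit of the platelet-activating factor acetylhydrolase that LIS1 also joins, had -0.32 (adjusted p = 0.412), with knockout replicate 3 again within the WT range.

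Adaptors that activate dynein numbered 19 tested, with 7 above WT, 12 below, a median of -0.12 and 0 past the test. Without WT replicate 2 the split was 10 above and 9 below, with a median of 0.037. Mapk8ip3, the JIP3 adaptor of vesicle transport, measured 33.5, 40.9 and 39.6 CPM in WT replicates 1, 2 and 3 and 23.2, 25.6 and 31.2 CPM in knockout libraries, with groups apart (log2 fold change -0.51, edgeR adjusted p = 0.307). Bicd1, a coiled-coil cargo adaptor, measured 29.5, 31.2 and 31.2 CPM in WT and 19.9, 15.4 and 26.6 CPM in knockout libraries, also apart (-0.57, adjusted p = 0.313). Rab11fip3, an adaptor of recycling endosomes, had -0.75 (adjusted p = 0.357), and its knockout replicate 3 overlapped WT.

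Genes that bring dynein to kinetochores and the cell cortex in mitosis were 10, with 9 above WT, a median of 0.075 and 0 past the test. With upper-quartile scaling they split 5 and 5. Without knockout replicate 1 they split 6 and 4 with a median of 0.022, while leaving out knockout replicate 3 gave a median of 0.14 and WT replicate 3 one of 0.11. Bub1, a checkpoint kinase gene, had the smallest p, with a log2 fold change of 0.53 (edgeR adjusted p = 0.298), followed by Spag5 (0.24) and Zwilch (0.23). Bub1 had groups apart, with the knockout higher, while those of Spag5 and Zwilch overlapped. Among 13 mitotic kinesins 10 lay above WT (median 0.20, 0 past the test), led by Kif11, Kif20a and Kif15 at 0.30, 0.31 and 0.25. Kif11 had groups apart, while those of Kif20a and Kif15 overlapped. The 18 transport kinesins tested had 12 below WT (median -0.17, 0 past the test), and a median of -0.33 without knockout replicate 3. Within them Klc1, a kinesin light chain gene, had 0.50 (adjusted p = 0.298), Kif21b -0.44 and Kif1b 0.78. Groups were apart for Klc1, with the knockout higher, and for Kif21b, with the knockout lower, and overlapped for Kif1b.

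**Figure D4:**
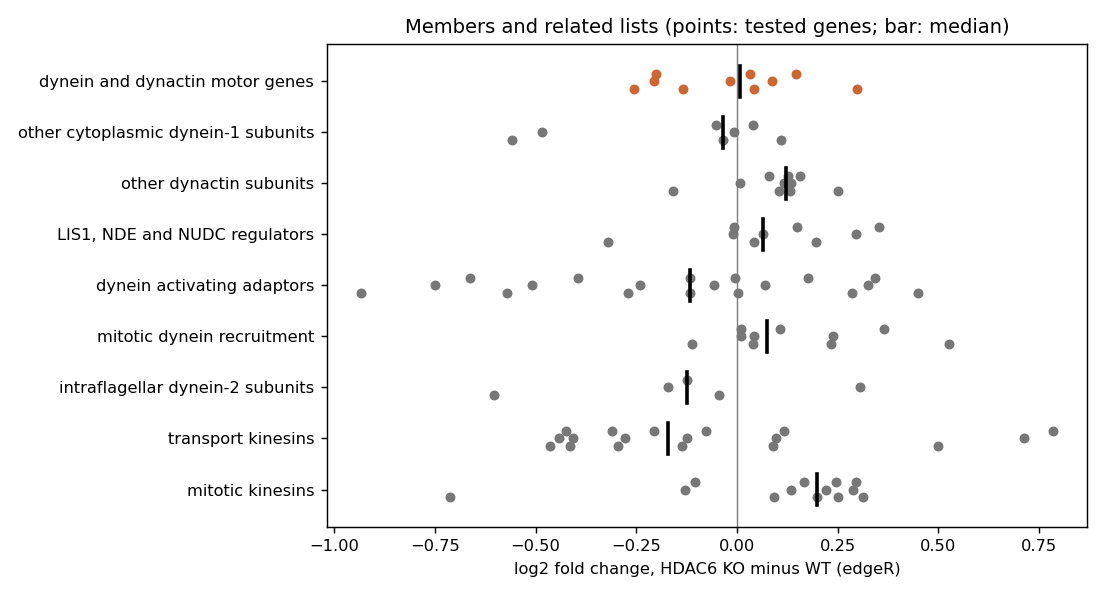
Log2 fold changes, knockout minus WT, of the 10 genes (orange) and of the tested genes of related lists (grey), with the median of each list as a black bar. Axonemal dyneins and the enzymes of tubulin acetylation are not drawn. The 10 genes spread from -0.26 to 0.30 around a median near 0, other dynactin subunits have a median of 0.12 and transport kinesins one of -0.17.

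The dynein of cilia and flagella was measured for comparison with the cytoplasmic motor. Of the intraflagellar dynein subunits 5 were tested, with 4 below WT and 0 past the test, led by the heavy chain gene Dync2h1 at 26.6 ± 6.21 CPM in WT and 17.5 ± 3.10 CPM in knockout libraries (SD, n = 3 each, log2 fold change -0.60, edgeR adjusted p = 0.313). Dync2h1 had groups apart. Wdr34 (0.31) and Wdr60 (-0.17), with overlapping groups, followed. Of 14 axonemal dynein genes present 7 passed the filter on low counts, with 2 above WT, 5 below, a median of -0.69 and 0 past the test. That median was -0.40 without WT replicate 2, -0.45 without WT replicate 3 and -0.099 on log2(FPKM + 1). Dnah12, on the higher side, had 0.90 (edgeR adjusted p = 0.653), with overlapping groups. Its means were low and spread widely, at 1.70 ± 1.26 CPM in WT and 3.18 ± 2.38 CPM in knockout libraries (SD, n = 3 each). Dnah8 had the smallest p, at 16.1 ± 2.74 and 8.91 ± 2.63 CPM with groups apart (log2 fold change -0.86, edgeR adjusted p = 0.307), followed by Dnah1 (-0.78) and Dnah7b (-0.69). Besides Hdac6 the enzymes of tubulin acetylation were Atat1, the acetyltransferase, at -0.34 (adjusted p = 0.381, groups apart) and the deacetylase gene Sirt2 at -0.049.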

How the data were processed

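The authors deposited 1 table of 16022 genes. Per the file headers it holds, for each library, read counts (estimated counts, since many are not whole) and FPKM. Build GRCm39, featureCounts 2.0.3, HISAT2 2.2.1, SAMtools 1.13 and DESeq2 are listed, without roles, per the submitters' processing notes. The labels and notes state no annotation, strand setting or treatment of shared reads. Between 19.6% and 20.9% of estimated counts per library were not whole and were rounded. In R 4.3.3, edgeR 4.0.16 (filterByExpr, minimum count 10, TMM, robust glmQLFit, glmQLFTest) was fitted to all 6 libraries and 12875 genes, and p-values were adjusted over all of them. The SE is the log2 fold change over the root of F, and intervals use the degrees of freedom of the fit. DESeq2 1.42.0 and limma 3.58.1 served as alternatives, limma on log2(FPKM + 1) among them. Each paralog ratio was taken from the deposited FPKM and compared by an exact permutation test. The tests were checked on simulated data with planted changes larger than any of the 10 genes showed. Whether changes as small as theirs would be called was not checked.

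The 10 genes and the lists were chosen with earlier results of these data known. Named besides them were Hdac6, all other subunits of cytoplasmic dynein-1 and dynactin, the 3 genes with the smallest p of each other list, the 5 genes most like Dync1h1, the gate markers Kit and Ly6a, and Nde1 as the paralog of Ndel1. Dnah12 was named outside this rule, to show an axonemal dynein gene on the higher side. Promoter windows are from RefSeq and coding sequences from GENCODE M21, the longest per gene. Both are on GRCm38, so no coordinates are given for the counts.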

Additional observations from a re-analysis of the deposited data

How the results depend on the processing

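The count of the 10 genes called stayed at 0 under all 15 alternatives. Over all genes edgeR called 1, DESeq2 called 181, and leaving out a library gave 1 to 44, with 44 without knockout replicate 3 and 4 without knockout replicate 1. Library pairs were also compared by chi-square of their counts over its degrees of freedom, which is lower for more alike libraries. Knockout replicate 3 had 34.2, 32.9 and 24.9 against WT replicates 1, 2 and 3. Against knockout replicates 1 and 2 it had 55.8 and 51.5, so it lay nearer to WT. Its part in the results was not tested. The median log2 fold change of the 10 genes ran from -0.11 (without WT replicate 1) to 0.066 (without knockout replicate 2) when a library was left out. The number of genes with groups that do not overlap, an alternative added after the data were seen, ran from 2 to 5 when a library was left out, with 5 without WT replicate 3. Leaving out a library can only keep or raise this number. The share of all genes apart moved too, from 9.70% lower and 8.86% higher with all libraries to 18% and 16.8% without WT replicate 3 and 20.2% and 20.6% without knockout replicate 3.

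Of 149 alternative values for single genes 137 kept their direction and 12 changed it. Dctn1 was -0.019 with upper-quartile scaling and -0.029 on log2(FPKM + 1), and Ndel1 -0.0089 and -0.0078. Leaving out a library moved Dctn1 between -0.035 and 0.15, Ndel1 between -0.071 and 0.22, Pafah1b1 between -0.32 and 0.043 and Dynll2 between -0.31 and 0.39. The Ndel1 to Nde1 log2 ratio difference ran from -0.13 to 0.21 when a library was left out. Dynll2 did not pass the stricter filter of 5 CPM in 3 libraries. The cause of these changes was not tested.

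With the replicate number as a block edgeR again called 1 gene and 0 of the 10, and Dynll2 had a log2 fold change of 0.032. Same-numbered libraries did not deviate together (correlations of 0.033, -0.039 and -0.12), so the numbers were not taken to pair them.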
